A study of Mus musculus with 29 samples.

Results

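Bone marrow in a state labelled transition was compared with bone marrow in a state labelled proliferation, both from mice that carry MLL-ENL-ERtm, on 8 of the 29 arrays of the series. The 4 arrays of each state were chosen by their sample titles, and no measured value entered the choice. MLL-ENL joins the chromatin regulator MLL to ENL, a component of transcription elongation complexes, and occurs in human leukaemia. The ERtm part, taken from the oestrogen receptor and mutated, leaves the fusion inactive until tamoxifen binds it. The proliferation mice had received tamoxifen for 7 months and the transition mice for 7 to 8 months. Beside them stood 3 arrays of MLL-ENL-ERtm marrow in senescence after 8 months and 4 arrays of wild-type marrow after 7 or 8 months. All of these mice, wild type included, had tamoxifen in the chow at 300 mg/kg. The labels ascribe to proliferation vigorous division and a weak response to DNA damage, and describe transition by slower division and a strong response. RNA came from primary marrow cells that were not sorted, as far as the labels say, so that a lower level can mean fewer cells of a type or less RNA per cell, and the data do not separate these. The promoter that drives the fusion and the ages of the mice are not given in the sources used here. The arrays of a state are called biological replicates. The p-values of genes weigh a difference against the spread between arrays within groups. That spread was estimated over all 15 marrow arrays, senescence and wild type included.

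An oncogene that drives division can damage DNA and set off a checkpoint, in which the kinases ATM, ATR and CHK1 halt the cycle and p53 and the cyclin-dependent kinase inhibitors hold it. Cells under such stress often also secrete cytokines and chemokines. Chemokines are small secreted proteins that attract white cells: Cxcl2 attracts neutrophils through the receptor Cxcr2, and Ccl3 and Ccl4 attract monocytes and lymphocytes. The question put by the design is which transcripts accompany the passage from vigorous division to an active damage response.

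The values are log2 levels, on which a difference of 1 is a 2-fold change. The medians of the 8 arrays lay between 8.11 and 8.29 and their lower quartiles between 6.13 and 6.32, and levels near or under the quartile are dim. Myeloid transcripts that define granulocyte-rich marrow were bright on all 8 arrays, with Mpo at 14.65 to 15.07, S100a8 at 15.04 to 15.32 and Lyz2 at 14.89 to 15.18. Xist lay between 12.61 and 13.32 and the Y-linked Eif2s3y between 4.12 and 4.33 on all 8, so the states compared did not differ in sex by these transcripts. Senescence 2 and 3 and wild type 1 and 2 were of the other sex, with Xist at 7.02 to 7.61. The array labelled proliferation 1 held skeletal muscle transcripts, and transition 1 had the lowest of limma's array weights (0.22, beside 0.53 for proliferation 1). Where leaving out 1 of the 8 arrays moved the difference of a named gene at an unadjusted p under 0.05 by more than 1.5 times, the value without it is given.

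No gene separated the states at an adjusted p under 0.05 in limma, which is 0 of 12394 genes or 0.0%. The lowest adjusted p-values were 0.33 for Cxcl2 and 0.42 for Ccl3, and every other gene was at 0.9999 or above. At an unadjusted p under 0.05, 150 genes (1.21%) were higher in transition and 116 (0.936%) lower, which is 266 in all. All 4 transition arrays lay above all 4 proliferation arrays for 98 genes (0.791%) and below them for 74 (0.597%). The median difference over all genes was 0.01. With the arrays quantile-normalized again 394 genes reached the unadjusted threshold, 68.3% of them higher in transition, against 56.4% in the values as deposited. Without transition 1 the count was 600, without proliferation 2 it was 152, and without proliferation 1 and transition 1 together it was 554, each with 0 genes past the adjusted threshold. With array weights 990 genes reached the unadjusted threshold and 3 the adjusted one: Cxcl2, Ccl3 and Ripk4, each at adjusted p = 0.0436. The differences below are therefore descriptions of these 8 arrays, ordered by what the genes do. Counts of list members are to be read beside the shares over all genes given here.

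Inflammatory chemokines gave the largest difference between the states. Cxcl2 was at 7.17, 7.04, 7.23 and 7.45 on the proliferation arrays and at 12.86, 9.54, 10.24 and 10.66 on the transition arrays. Every transition array thus lay more than 2 units above every proliferation array, and transition 1 lay highest. The difference was 3.60 ± 0.60 (SE, adjusted p = 0.33, limma) and stayed between 2.92 and 4.03 with each of the 8 arrays left out. The senescence arrays, at 8.40, 6.27 and 7.37, and the wild-type arrays, at 8.41, 8.11, 7.00 and 6.94, were all below the lowest transition array. Ccl3 was at 7.77, 7.42, 7.73 and 6.50 in proliferation and at 11.21, 9.30, 9.29 and 9.39 in transition. Again the states did not overlap, with 3 transition arrays close together and transition 1 above them. The difference was 2.45 ± 0.44 (adjusted p = 0.42), or 5.45-fold, and 1.98 without transition 1. Ccl4, the neighbour of Ccl3 in function, was at 7.89 to 8.22 in proliferation and at 9.27, 8.24, 8.38 and 8.46 in transition, a difference of 0.52 ± 0.19 that was 0.30 without transition 1.

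**Figure D1:**
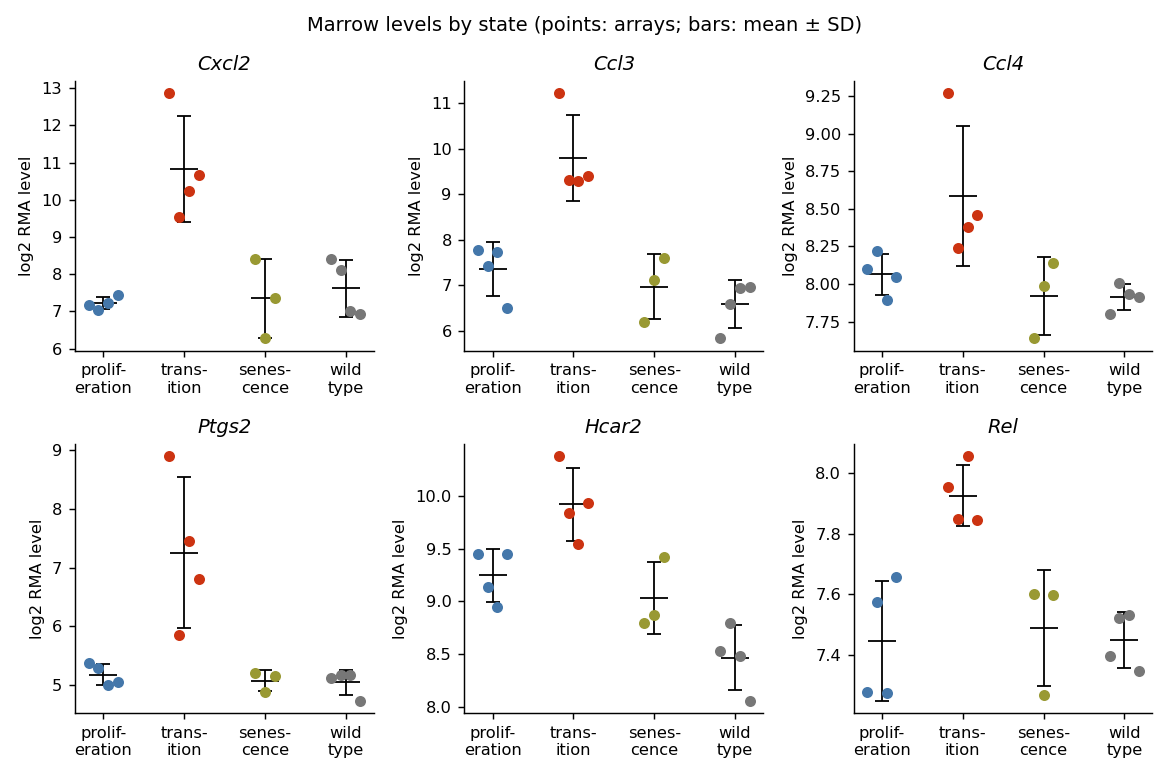
Log2 level (y axis, a range of its own in each panel) of 6 genes in the 4 marrow groups (x axis); each point is an array and the bars are mean ± SD. Cxcl2, Ccl3, Ccl4, Ptgs2, Hcar2 and Rel all have their 4 transition arrays above their 4 proliferation arrays, and in Cxcl2 the senescence and wild-type arrays lie at 8.41 or below.

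Against wild type, transition marrow had Cxcl2 higher by 3.21 ± 0.60 (adjusted p = 0.029, limma), Ccl3 by 3.22 ± 0.44 (adjusted p = 0.0030) and Ptgs2 by 2.20 ± 0.43 (adjusted p = 0.040), among 52 genes past the threshold of 12394 (0.42%). In proliferation marrow against wild type, with 35 genes past it (0.282%), the same genes differed by -0.39, 0.77 and 0.13, with adjusted p from 0.62 to 0.96. These comparisons share the transition or the wild-type arrays with others given here and are not separate evidence. The transition arrays all had high Xist while 2 of the 4 wild-type arrays did not. For Cxcl2 these latter arrays, wild type 1 and 2, were the higher ones of their group. For Ccl3 they were the lower ones, at 5.83 and 6.59 beside 6.94 and 6.97 on wild type 3 and 4. Ptgs2 was at 5.12 and 5.18 on wild type 1 and 2 and at 5.17 and 4.73 on wild type 3 and 4. The part of sex in these differences was not tested.

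The promoters of the 3 genes with the smallest p are shown because all 3 had arrays that did not overlap, and that of Cxcl1, a close relative of Cxcl2, because it holds the same site. Each run is the 250 bases before the RefSeq transcription start in GRCm38.p6, on the gene's strand, at chr5:90903649-90903898 (plus) for Cxcl2, chr11:83649379-83649628 (minus) for Ccl3, chr1:150099781-150100030 (plus) for Ptgs2 and chr5:90890995-90891244 (plus) for Cxcl1. Capitals mark matches to the NF-kappaB consensus, a 10-base site, or to the C/EBP motif TTNNGNAA, on either strand.
Cxcl2: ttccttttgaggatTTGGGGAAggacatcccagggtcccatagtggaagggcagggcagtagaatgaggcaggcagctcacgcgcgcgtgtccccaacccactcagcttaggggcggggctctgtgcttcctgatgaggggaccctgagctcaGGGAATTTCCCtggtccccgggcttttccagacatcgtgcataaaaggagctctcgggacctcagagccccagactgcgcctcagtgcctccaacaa
Ccl3: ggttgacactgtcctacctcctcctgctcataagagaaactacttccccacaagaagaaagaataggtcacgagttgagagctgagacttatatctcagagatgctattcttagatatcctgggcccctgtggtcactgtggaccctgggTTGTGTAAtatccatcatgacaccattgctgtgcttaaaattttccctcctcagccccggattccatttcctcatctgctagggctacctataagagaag
Ptgs2: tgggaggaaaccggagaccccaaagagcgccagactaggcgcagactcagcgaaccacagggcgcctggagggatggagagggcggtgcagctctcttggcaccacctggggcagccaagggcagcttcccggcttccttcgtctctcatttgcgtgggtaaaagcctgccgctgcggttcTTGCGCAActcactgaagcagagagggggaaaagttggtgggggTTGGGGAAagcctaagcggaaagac
Cxcl1: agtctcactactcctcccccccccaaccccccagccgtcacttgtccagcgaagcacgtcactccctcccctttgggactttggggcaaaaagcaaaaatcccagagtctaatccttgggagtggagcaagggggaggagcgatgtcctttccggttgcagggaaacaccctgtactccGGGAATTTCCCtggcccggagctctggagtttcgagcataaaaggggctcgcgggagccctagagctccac

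The Cxcl2 promoter held an NF-kappaB match at bases -97 to -88 on the plus strand, overlapped by one at -96 to -87 on the minus strand, since the site reads nearly alike in both directions. Cxcl1 held the same letters at -71 to -62. Of 32536 mouse promoters of this length, 3.92% held a match. C/EBP matches stood at -236 in Cxcl2, at -100 in Ccl3 and at -69 and -25 in Ptgs2, and 36.8% of promoters held one. No match to AP-1 (TGANTCA, in 6.73% of promoters), the cyclic AMP response element (TGACGTCA, 1.56%), the CArG box (1.48%) or TATAAA (12.3%) stood in these 4 windows. Cxcl1 itself was at 4.56 to 4.69 in proliferation and at 4.82, 4.65, 4.66 and 5.08 in transition, dim on all 8 arrays. Its difference was 0.15 ± 0.14. Cxcl1 was added to the genes named after its values were seen.

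Of 25 listed chemokines 24 were measured, and 14 of them were above 0 in difference, with a median of 0.06. Cxcl2, Ccl3 and Ccl4 were the 3 higher in transition at an unadjusted p under 0.05, beside 1.21% of all genes. They were also the 3 whose arrays did not overlap. The 2 lower ones were Ppbp (-1.77 ± 0.63) and Pf4 (-1.23 ± 0.53), which are platelet products and are described with the megakaryocyte genes. Among the 16 chemokine receptors measured of 17, 10 were below 0 and the median was -0.11. Of the 16, 1 was lower at the unadjusted threshold, beside 0.936% of all genes. That gene was Cxcr2, the neutrophil receptor for Cxcl2. Cxcr2 was at 12.31, 11.94, 11.75 and 12.20 in proliferation and at 11.10, 11.83, 11.54 and 11.93 in transition. The states overlapped, and the difference of -0.45 ± 0.20 was -0.28 without transition 1.

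Ptgs2, the inducible cyclooxygenase that makes prostaglandin precursors, was the third gene by p. It was at 5.38, 5.29, 5.01 and 5.05 in proliferation, under the lower quartile of those arrays, and at 8.89, 5.85, 7.45 and 6.81 in transition. The 4 transition arrays spanned more than 3 units but all lay above the 11 other marrow arrays, which ran from 4.73 to 5.38. The difference was 2.07 ± 0.43 and 1.52 without transition 1. Of 26 prostaglandin and leukotriene genes 23 were measured, with 16 below 0 and a median of -0.11. At an unadjusted p under 0.05, 1 was higher and 2 lower, beside 1.21% and 0.936% of all genes. Beside Ptgs2, the genes at an unadjusted p under 0.05 were lower: Alox12, the platelet lipoxygenase (-1.59 ± 0.71), and Ptger3, a prostaglandin E receptor (-0.99 ± 0.37, with the opposite sign in 1 of its 2 probe sets). Alox12 was highest on proliferation 1 (11.60) and was at -0.96 in difference without that array. Hcar2, a receptor for niacin and ketone bodies that signals through prostaglandins in skin, was at 9.45, 9.14, 8.94 and 9.45 in proliferation and at 10.38, 9.83, 9.55 and 9.93 in transition. These arrays did not overlap, and the difference was 0.68 ± 0.21.

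A few immediate early genes were higher in transition at an unadjusted p under 0.05, though not on every array. Cells switch such genes on within minutes of a stimulus. The count was 8 of 49 measured, beside 1.21% of all genes. Fos, a partner of Jun in the AP-1 transcription factor, was at 10.63, 10.57, 10.83 and 10.87 in proliferation and at 14.65, 13.68, 10.28 and 14.11 in transition. Transition 3 was the lowest of the 8 arrays while the other 3 were the highest. The fitted difference was 2.46 ± 0.84, or 5.49-fold. Fos was also at 13.13 on senescence 1 and at 12.99 and 13.02 on wild type 1 and 2, so that a high level was not limited to transition. Egr1, a zinc finger factor induced by growth signals, was at 9.31, 9.35, 9.22 and 9.31 in proliferation and at 12.46, 10.39, 9.34 and 10.98 in transition (1.50 ± 0.43, and 0.94 without transition 1). Unlike Fos, it was at 9.80 or below on every senescence and wild-type array. Jun, the other partner in AP-1, was at 8.33, 7.85, 7.49 and 7.98 in proliferation and at 10.47, 8.82, 8.14 and 8.45 in transition, a difference of 1.06 ± 0.36 that was 0.56 without transition 1.

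**Figure D2:**
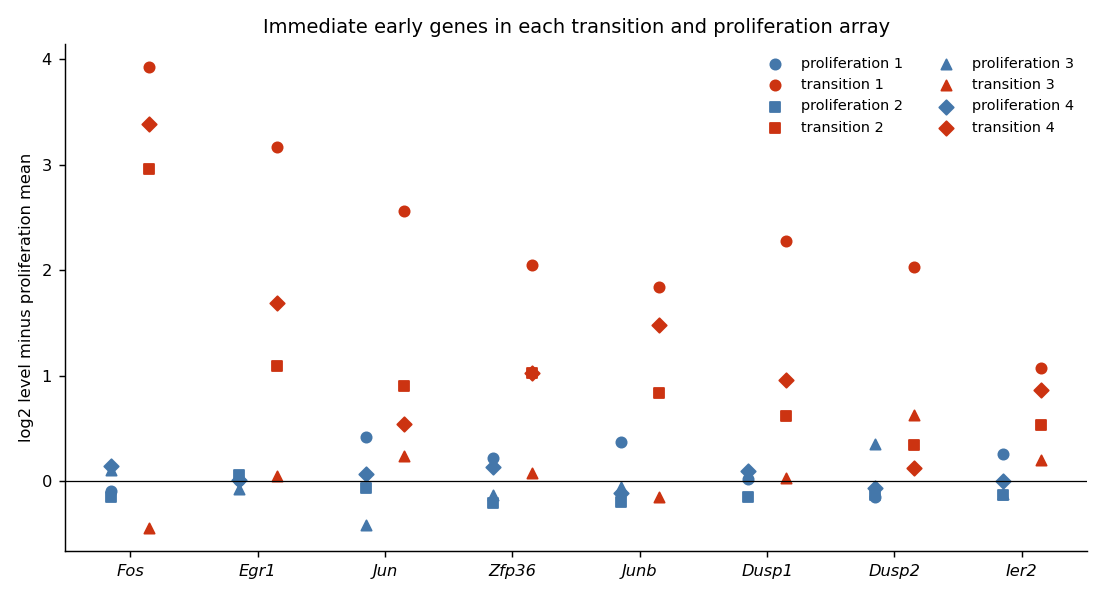
Log2 level minus the proliferation mean (y axis) of the 8 immediate early genes at an unadjusted p under 0.05 (x axis), with blue for proliferation, red for transition and a marker shape for each replicate number. Transition 1 is the highest transition array in all 8 genes, and transition 3 the lowest in 7.

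Of 52 listed immediate early and stress genes 49 were measured: 33 were above 0, 16 were below 0, 0 were lower at an unadjusted p under 0.05 and 0 had arrays that did not overlap. The median was 0.15. Without transition 1 it was 0.06, with 6 members higher and 1 lower at that threshold. In that setting 446 of all 12394 genes were higher and 154 lower. The other members of the 8 were Zfp36 (1.04 ± 0.33), which binds and destabilises cytokine mRNAs, Junb (1.00 ± 0.39), the phosphatases Dusp1 (0.97 ± 0.45, and 0.53 without transition 1) and Dusp2 (0.78 ± 0.30, and 0.36), which act on mitogen-activated kinases, and Ier2 (0.67 ± 0.21). Junb and Dusp1 were outside the naming rule and are given to complete the 8. Transition 1 was the highest transition array in all 8 genes and transition 3 the lowest in 7 of them. Fosb, named after its values were seen, was at 8.76 on transition 1 and at 5.90 or below on the other transition arrays, and its difference went from 0.97 ± 0.52 to 0.18 without that array. The chemokines did not share this order in full, since Cxcl2 on transition 3 (10.24) was above transition 2 (9.54).

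NF-kappaB, the factor that drives many inflammatory genes, showed 1 subunit apart. Rel was at 7.28, 7.57, 7.27 and 7.66 in proliferation and at 7.95, 7.85, 8.06 and 7.85 in transition. The states did not overlap and the senescence and wild-type arrays stayed at 7.60 or below. The difference was 0.48 ± 0.12 and between 0.42 and 0.55 with each of the 8 arrays left out. Of the 28 list members measured of 30, Rel was the 1 gene at an unadjusted p under 0.05, beside 1.21% of all genes higher. In the list 15 were below 0 and the median was -0.03. Birc2, an inhibitor of apoptosis, had all transition arrays below the proliferation arrays and missed the threshold (-0.24 ± 0.12). Nfkbia, the inhibitor that NF-kappaB itself induces, differed by 0.00 ± 0.12, and Tnfaip3, another feedback inhibitor named after its values were seen, by 0.22 ± 0.12.

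Of the other inflammatory cytokines and receptors, 1 reached an unadjusted p under 0.05. Il6, a cytokine of the senescence-associated secretion, was dim, at 5.80, 5.09, 6.08 and 5.33 in proliferation and at 5.60, 5.39, 6.42 and 4.82 in transition. Il1b was bright, at 11.45 to 12.14 and 11.67 to 12.60, and differed by 0.22 ± 0.28. Both overlapped between the states. Tnf was at 8.95, 8.45, 8.61 and 8.60 in proliferation and at 10.22, 8.70, 8.60 and 9.48 in transition, a difference of 0.60 ± 0.28 that was 0.28 without transition 1. Lif, a cytokine of the interleukin-6 family, was dim but had arrays that did not overlap, at 6.0 to 6.31 and 6.34 to 6.90 (0.34 ± 0.14, and 0.22 without transition 1), though 1 of its 2 probe sets had the opposite sign. It was the 1 gene of the 32 measured of 35 at an unadjusted p under 0.05, beside 1.21% of all genes higher. The list's median was -0.02. The largest negative difference of the list was that of Osmr, the oncostatin M receptor (-0.62), and Il18rap, a subunit of the interleukin-18 receptor (-0.51 ± 0.28), had all transition arrays below the proliferation arrays. Both missed the unadjusted threshold and, like the other list members added below for not overlapping, were named after their values were seen. Of 34 interferon-induced genes measured of 40, 0 reached that threshold and the median was 0.00, and Bst2, an antiviral membrane protein, had all transition arrays above the proliferation arrays (0.35 ± 0.17). Without transition 1, 6 of them reached it, all higher, and the median was 0.12. In that setting 446 of all 12394 genes were higher at an unadjusted p under 0.05.

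Transcripts of cell division, on which the labels set the states apart, overlapped, as nearly all genes did. Over all genes, 0.791% lay apart upward and 0.597% downward. Mki67, the gene of the Ki-67 division antigen, was at 13.63, 14.45, 14.53 and 14.38 in proliferation and at 14.14, 14.33, 14.18 and 13.79 in transition. Proliferation 1 was the lowest of the 8 arrays. The difference was -0.14 ± 0.21, and -0.34 without proliferation 1. Of 39 mitosis and G2/M genes measured of 40, 29 were above 0, 0 reached an unadjusted p under 0.05 in either direction and the median was 0.08. Of 36 DNA replication and G1/S genes measured of 40, 29 were above 0, 0 reached it and the median was 0.13. Those medians were -0.12 and -0.09 without proliferation 1, and 0.24 and 0.31 without transition 4, so that a single array set their sign. The array medians of the mitosis list, relative to the wild-type mean, were -0.98, -0.38, 0.06 and -0.08 in proliferation and -0.23, -0.11, 0.06 and -0.69 in transition.

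Damage response genes mostly overlapped between the states, as nearly all genes did. Arrays did not overlap in 1 of the 44 measured, beside 0.791% of all genes apart upward and 0.597% downward. Chek1, the checkpoint kinase downstream of ATR, was at 9.58, 10.23, 10.58 and 10.36 in proliferation and at 10.34, 10.50, 10.44 and 9.85 in transition (0.10 ± 0.24, and -0.11 without proliferation 1). Of 44 damage response and repair genes measured of 54, 2 were higher at an unadjusted p under 0.05, beside 1.21% of all genes. In the list 34 were above 0 and the median was 0.10. That median was -0.04 without proliferation 1. The 2 genes were Ercc1, a subunit of an excision repair nuclease, and H2ax, the histone that is phosphorylated at breaks. Ercc1 was at 8.91, 8.69, 8.75 and 8.74 in proliferation and at 9.23, 8.92, 9.84 and 8.93 in transition, where transition 3 stood above the rest (0.46 ± 0.19, and 0.25 without that array). H2ax was at 12.50, 12.57, 12.98 and 12.89 and at 13.18, 13.08, 13.49 and 12.65, with overlap (0.36 ± 0.16, and 0.23 without transition 3). Without transition 3, and also without proliferation 2, 0 of the 44 reached the threshold. Signalling in this pathway runs through phosphorylation, which arrays of RNA do not measure.

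Few targets of p53 and cell cycle inhibitors reached the unadjusted threshold. Cdkn1a, the inhibitor p21 that p53 induces, was at 10.56, 10.14, 9.98 and 10.15 in proliferation and at 11.02, 10.05, 10.23 and 10.29 in transition (0.19 ± 0.20, and -0.02 without transition 1). Cdkn2a, which encodes p16 and p19Arf, was dim at 5.73 to 6.13 and 5.67 to 6.39 (0.11 ± 0.15). Of 37 inhibitor and senescence genes measured of 42, 0 reached an unadjusted p under 0.05 and the median was -0.06. Hmga2, a chromatin protein, had all transition arrays below the proliferation arrays (-0.23 ± 0.14). Of 39 p53 target and apoptosis genes measured of 43, 1 was higher and 1 lower at an unadjusted p under 0.05. The shares over all genes were 1.21% and 0.936%, and the list's median was -0.03. Bak1, which promotes apoptosis, had all transition arrays above the proliferation arrays and missed the threshold (0.34 ± 0.17). Plk3, a stress-induced kinase, was at 8.84, 8.37, 8.29 and 8.42 in proliferation and at 10.28, 8.72, 9.29 and 8.85 in transition (0.81 ± 0.28, and 0.47 without transition 1). Mcl1, which protects against apoptosis, was lower by 0.28 on the log2 scale (-0.28 ± 0.12) and by less, at -0.18, without transition 1. Trp53 itself was not analysed here.

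No difference in the fusion or its targets reached an unadjusted p under 0.05. The Esr1 probe set, which may read the oestrogen receptor part of the fusion, was at 8.66, 8.13, 8.45 and 8.30 in proliferation, at 8.54, 8.18, 8.49 and 8.35 in transition and at 5.60, 5.75, 6.65 and 6.18 in wild type. The arrays of both states lay above all wild-type arrays, and the states differed by 0.01 ± 0.19. What the probe set reads was not tested. Kmt2a, the mouse MLL gene, differed by -0.12 ± 0.16 and Mllt1, the gene of ENL, by 0.18 ± 0.15. Hoxa9, a homeobox gene that MLL fusions keep active, was at 12.93, 13.29, 13.30 and 13.28 in proliferation, at 12.76, 13.61, 13.18 and 13.08 in transition and at 10.81 to 11.30 in wild type. The difference between the states was -0.04 ± 0.19. Its cofactor Meis1 differed by -0.17 ± 0.19, and Hoxa10 and Hoxa5, named after their values were seen, by 0.34 ± 0.25 and 0.20 ± 0.18. Of 24 fusion targets measured of 28, 0 reached that threshold and the median was 0.05. The largest difference of the list was that of Pbx3, a cofactor of Hox proteins (-0.66), and Hmga2 was the 1 target without overlap. Without transition 1, Pbx3 and the receptor gene Flt3 were lower at an unadjusted p under 0.05, beside 154 of all 12394 genes.

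Some megakaryocyte and platelet transcripts were lower in transition, and their count depended on single arrays. Of 23 markers measured of 28, 19 were below 0 and the median was -0.67. Of the 23, 5 were lower at an unadjusted p under 0.05, beside 0.936% of all genes. In 3 the transition arrays all lay below the proliferation arrays, beside 0.597% of all genes. Without proliferation 1 the median was -0.31 and 1 marker reached the threshold. Without transition 1 it was -0.68 with 2 markers, without transition 4 it was -0.57 with 0, and without proliferation 1 and transition 1 together it was -0.32 with 0. Clec1b, the platelet receptor for podoplanin, was at 12.87, 10.98, 10.19 and 10.38 in proliferation and at 8.55, 10.00, 10.09 and 9.00 in transition. The states did not overlap, though proliferation 3 and transition 3 nearly met, and the difference was -1.69 ± 0.69, or -1.10 without proliferation 1. Ppbp, the platelet basic protein, was at 14.12, 13.21, 12.34 and 12.51 and at 10.54, 12.16, 12.53 and 9.88, and Itga2b, the platelet integrin subunit, was at 12.76, 11.22, 10.46 and 10.29 and at 9.75, 9.84, 10.55 and 8.67. Both overlapped through transition 3, and their differences were -1.77 ± 0.63 and -1.48 ± 0.61, or -1.41 and -0.95 without proliferation 1. Pf4, platelet factor 4, which was at -0.80 without that array, and the ADP receptor P2ry12 (-0.58 ± 0.26) completed the 5. The other markers without overlap were Selp, the adhesion receptor P-selectin (-0.67 ± 0.37, and -0.31 without proliferation 1), and the serotonin transporter Slc6a4 (-1.24 ± 0.64), named after their values were seen.

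The markers moved together among the proliferation, senescence and wild-type arrays. In transition 16 of the 23 markers were highest on transition 3. The lowest transition array was transition 1, 2 or 4, in 8, 5 and 10 markers. Relative to the wild-type mean, the list's median was 0.63 on proliferation 1 and -0.47, -0.85 and -0.81 on the other proliferation arrays, and -0.83, -1.09, -0.74 and -1.06 in transition. Senescence 2 (0.94) and wild type 2 (0.96) were as high as proliferation 1. In 17 of the 23 markers (73.9%) proliferation 1, senescence 2 and wild type 2 were each the highest of their own group, against 5.12% of all genes. Stromal transcripts were also highest on these 3 arrays within their groups, with list medians of 1.43, 1.11 and 1.34. The part of marrow composition in the platelet difference was not tested.

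**Figure D3:**
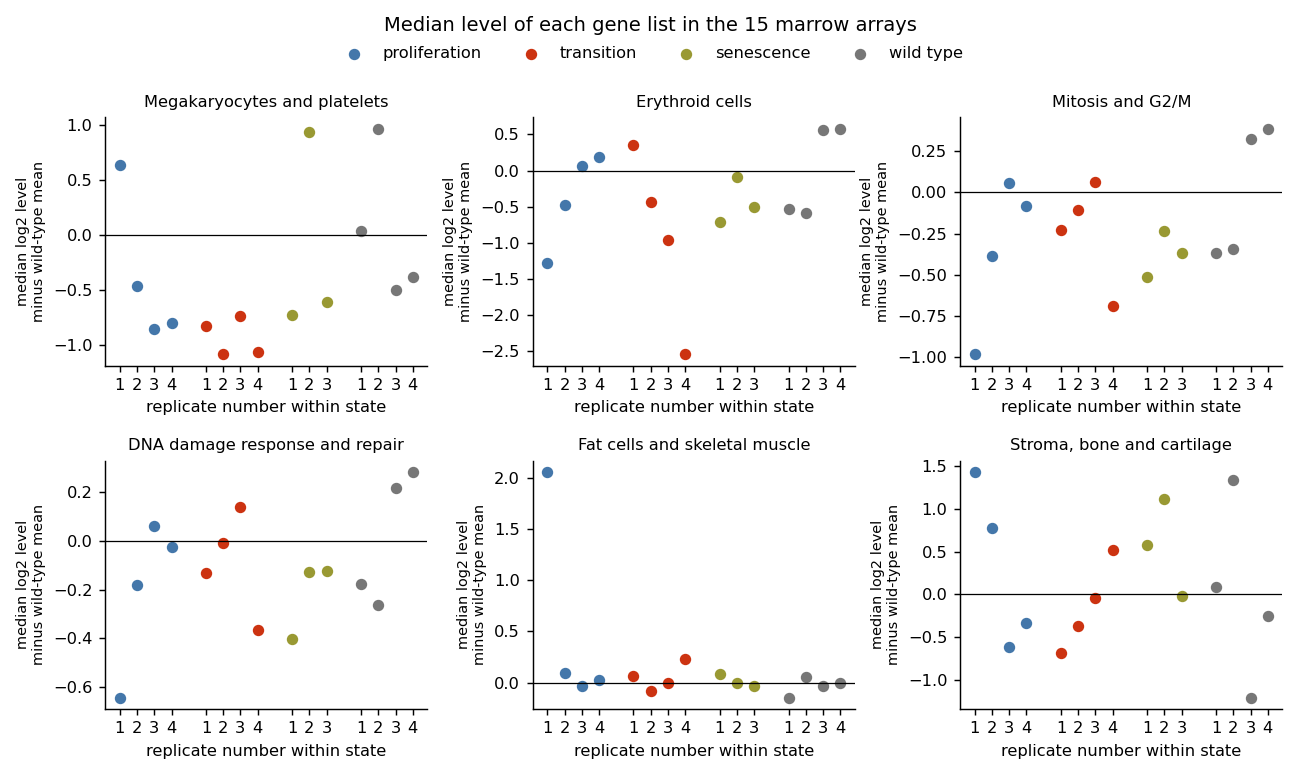
Median over a gene list of the log2 level minus each gene's wild-type mean (y axis) on each of the 15 marrow arrays (x axis, replicate number within state); colours are the states. Proliferation 1 stands at 2.06 for fat and muscle and at -0.98 for mitosis, and transition 4 at -2.55 for erythroid genes.

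The largest negative differences outside the marker list included genes with the same order of arrays. Cttn, the actin-binding protein cortactin, was at 11.71, 10.25, 9.46 and 10.23 in proliferation and at 8.65, 8.92, 9.42 and 8.73 in transition (-1.48 ± 0.47). Its highest senescence and wild-type arrays were senescence 2 and wild type 2. Med12l (-1.08 ± 0.42) and Nckap1, a subunit of the WAVE actin regulator (-0.89 ± 0.34), were also highest on proliferation 1, senescence 2 and wild type 2. These orders held in 4 of the 12 genes with the largest negative difference (33.3%), Clec1b among them, against 5.12% of all genes. A high proliferation 1 also lowers a difference, so choosing genes by a large negative difference favours this order by construction. Without proliferation 1 the differences were -1.05 for Cttn, -0.74 for Med12l and -0.63 for Nckap1.

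Erythroid transcripts depended on single arrays. Of 30 markers measured of 35, 29 were below 0 with a median of -0.47, and 0 reached an unadjusted p under 0.05. The array medians were -1.28, -0.48, 0.06 and 0.18 in proliferation and 0.35, -0.43, -0.97 and -2.55 in transition. Transition thus held both the highest and the lowest of the 8 arrays. The list's median difference was 0.01 without transition 4 and -0.92 without transition 1. Without proliferation 1 and transition 1, a pair chosen after seeing the data, it was -1.19. Then 24 of 30 markers were lower at an unadjusted p under 0.05, beside 231 of all 12394 genes. For this list the pair holds the lowest proliferation array and the highest transition array. Leaving it out therefore favours a lower difference by construction. Alas2, the first enzyme of haem synthesis in red cells, ran from 12.78 to 14.03 in proliferation and from 11.23 to 14.24 in transition. Slc4a1, the red cell anion exchanger, ran from 13.46 to 14.54 and from 11.99 to 14.60. Both were named after their values were seen.

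Skeletal muscle signal lay on proliferation 1, while stromal and endothelial signal was also raised on other marrow arrays. Myh2, a skeletal muscle myosin named after its values were seen, was at 11.37 on that array and at 4.95 or below on the 14 other marrow arrays. Of 29 fat and muscle genes measured of 32, 27 were below 0 with a median of -0.58, which was 0.00 without proliferation 1. Its 2 members at an unadjusted p under 0.05 were Eno3 (-0.72 ± 0.26) and Actn3 (-0.35 ± 0.14, and -0.22 without proliferation 1), both lower in transition. Over all genes 0.936% were lower at that threshold. Stroma, bone and cartilage genes, 28 measured of 33, had a median of -0.25 and of 0.06 without proliferation 1, and endothelial genes, all 24 measured, of -0.29 and -0.04. In both lists 0 reached the threshold. Relative to the wild-type mean, the stromal median was 1.43 on proliferation 1, 0.78 on proliferation 2, 1.11 on senescence 2 and 1.34 on wild type 2. The endothelial median was 1.13 on proliferation 1, 0.54 and 0.52 on senescence 1 and 2 and 0.68 on wild type 2.

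In the other blood lineages few markers reached the unadjusted threshold. Over all genes 1.21% were higher and 0.936% lower at it. Of 17 promyelocyte and immature granulocyte markers measured of 20 the median was 0.00 and 1 was higher: Orm1, an acute-phase protein, at 8.55 to 8.95 in proliferation and 9.07 to 9.47 in transition (0.52 ± 0.22). Orm1 has near-identical relatives that one probe set may also read. Of 18 mature neutrophil markers measured of 24 the median was -0.08, with Ptgs2 and the endotoxin coreceptor Cd14 (0.99 ± 0.38) higher and Cxcr2 lower. Cd14 was at 9.99, 10.11, 9.63 and 10.97 in proliferation and at 11.20, 10.42, 12.38 and 10.64 in transition, with overlap, and its difference was 0.58 without transition 3. Trem1, a receptor that amplifies inflammation, had all transition arrays above the proliferation arrays and missed the threshold (0.55 ± 0.29). Of 19 stem and progenitor markers measured of 22 the median was -0.09, and Cd34 was higher (0.78 ± 0.34). It was at 9.08, 9.37, 10.33 and 9.46 in proliferation and at 9.50, 10.42, 10.68 and 10.78 in transition, with overlap. No marker of monocytes and macrophages (25 measured, median -0.08), dendritic cells (16, 0.06), mast cells, basophils and eosinophils (17, -0.22), B cells (27, -0.08), plasma cells (13, 0.04), T cells (22, 0.04) or NK cells (22, 0.05) reached an unadjusted p under 0.05. The same held for respiratory chain genes (36, 0.07) and ribosomal protein genes (30, 0.00).

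**Figure D4:**
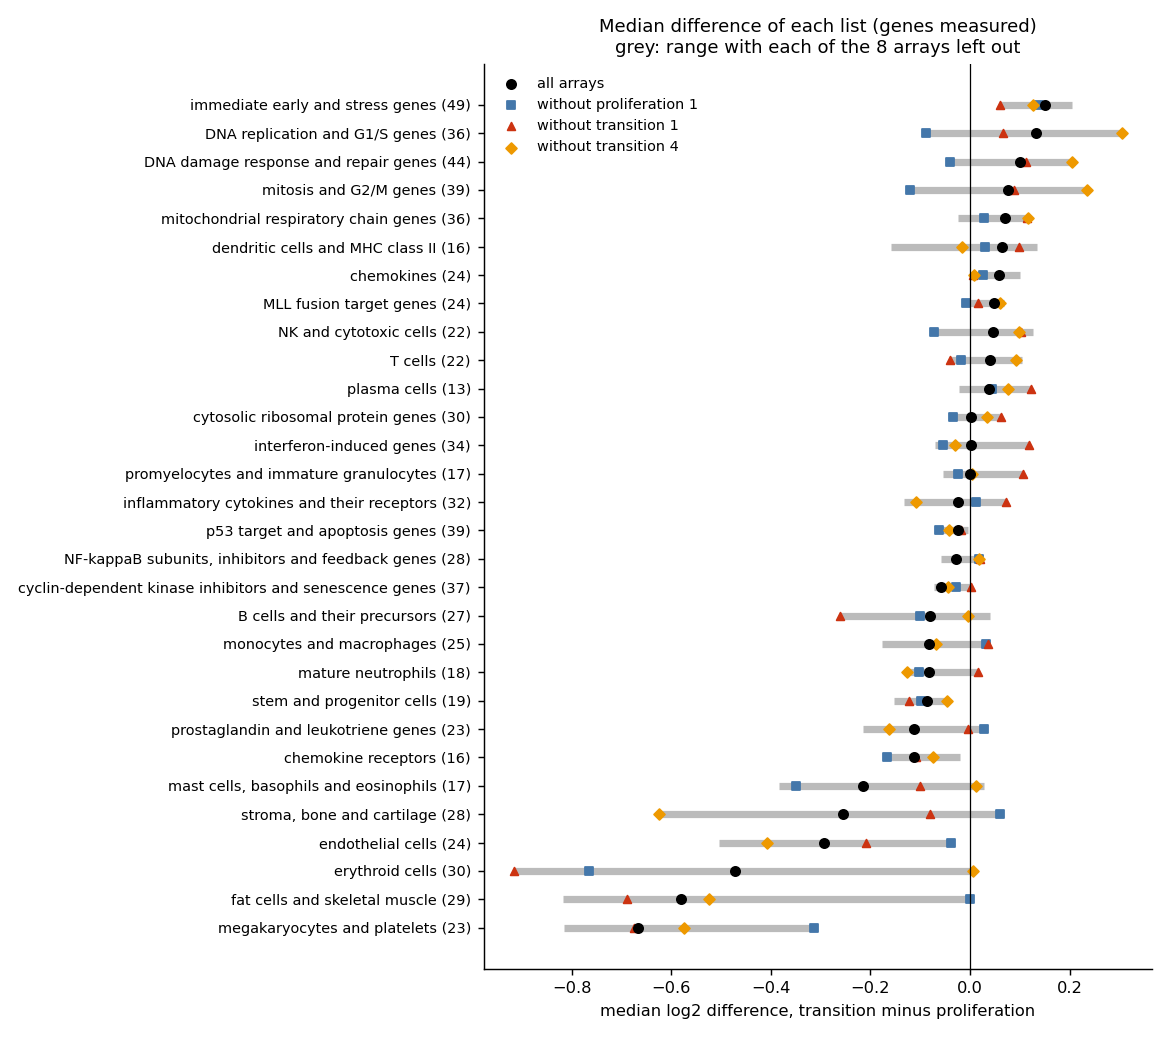
Median log2 difference, transition minus proliferation (x axis), of each gene list (y axis, number of genes measured in brackets) with all arrays (black) and without proliferation 1, transition 1 or transition 4; grey spans the values with each of the 8 arrays left out. The fat and muscle median goes from -0.58 to 0.00 without proliferation 1, and the erythroid median from -0.47 to 0.01 without transition 4.

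Further genes stood apart without belonging to these groups. Klk1b27, a tissue kallikrein with close relatives that its probe set may also read, was at 6.34, 6.56, 7.15 and 6.57 in proliferation and at 7.36, 7.46, 7.78 and 8.30 in transition (1.07 ± 0.24). Wild type, at 7.34 to 8.17, lay with transition, and senescence, at 6.48 to 6.99, with proliferation. Adat2, a subunit of a tRNA deaminase, was at 9.23 to 9.66 and 9.75 to 10.90 (0.99 ± 0.34). Pdia4, a disulfide isomerase of the endoplasmic reticulum, was at 9.34 to 9.69 and 9.88 to 10.14 (0.49 ± 0.13), but 1 of its 2 probe sets had the opposite sign. Spsb4 (0.65 ± 0.18), Matn2, a matrix protein (0.55 ± 0.14), and Psmg4, a proteasome assembly factor (0.50 ± 0.22), were highest on transition 3. Psmg4 was at 0.25 without that array. Matn2 was dim, at 5.52 to 5.58 in proliferation, under the lower quartile of those arrays.

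Among lower genes, Slc15a2, a peptide transporter, was at 11.07, 12.29, 11.77 and 11.24 in proliferation and at 10.24, 10.43, 8.06 and 10.93 in transition (-1.68 ± 0.63). Transition 3 was far below the other transition arrays, and the difference was -1.06 without it. Asprv1, a protease, was at 12.24 to 12.60 in proliferation and at 11.34, 11.84, 11.93 and 10.96 in transition (-0.94 ± 0.37), and wild type, at 10.66 to 11.95, lay with transition. S1pr5, a receptor for sphingosine 1-phosphate on NK cells and patrolling monocytes, was at 8.61 to 9.11 and 7.67 to 8.45 (-0.85 ± 0.28). Smaller differences in the same direction were those of Acyp2 (-0.66 ± 0.25), Rabgap1l (-0.61 ± 0.22), Ttc39b (-0.54 ± 0.17), Vamp1 (-0.53 ± 0.22) and the transcription factor gene Ubp1 (-0.51 ± 0.22). Vamp1 was at -0.30 without transition 1, and 1 of its 2 probe sets had the opposite sign.

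**Figure D5:**
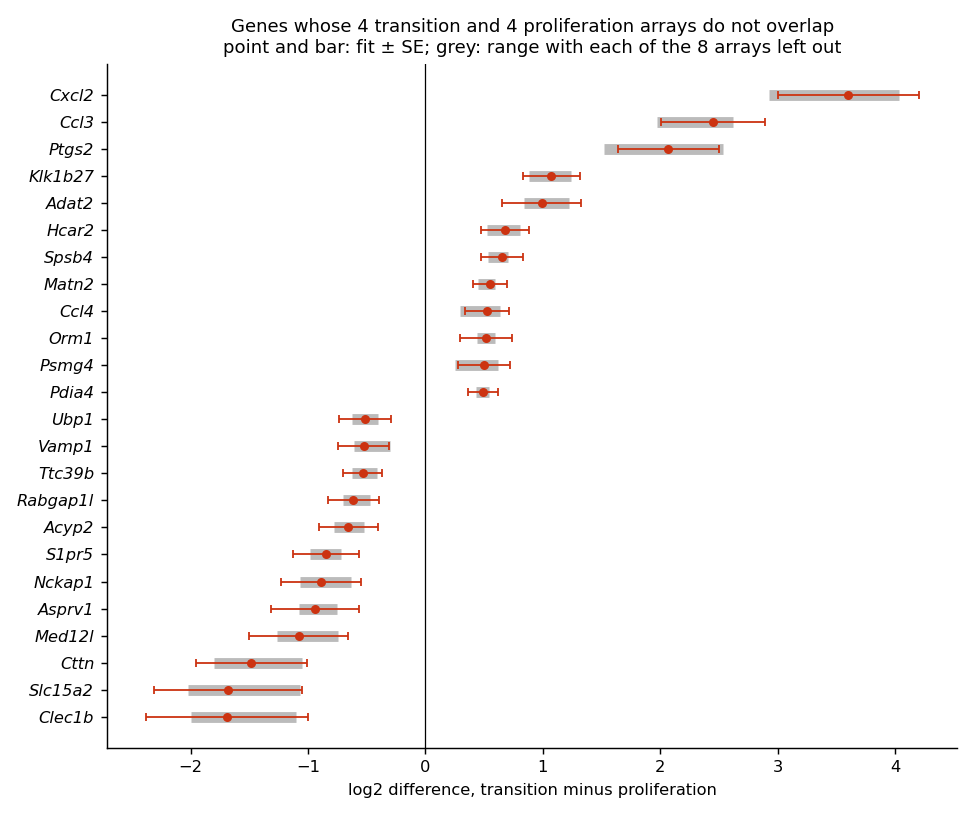
Log2 difference, transition minus proliferation (x axis), of the 12 genes with the largest positive and the 12 with the largest negative difference among those at an unadjusted p under 0.05 whose arrays do not overlap (y axis); points and bars are the fit ± SE, and grey spans the values with each of the 8 arrays left out. Cxcl2, Ccl3 and Ptgs2 stand at 3.60, 2.45 and 2.07, and Clec1b at -1.69.

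RNA quality was compared with the array's own controls. The 3' minus 5' difference of the Gapdh control probe sets was 1.65, 1.53, 1.50 and 1.59 in proliferation (mean 1.57 ± 0.07, SD, n = 4) and 1.87, 1.36, 1.21 and 1.18 in transition (1.41 ± 0.32, n = 4). The states differed by -0.16 (two-sided exact permutation test, p = 0.343, where 4 against 4 arrays can reach 0.0286). Transition 1, the highest array for Cxcl2, Ccl3 and Ccl4 and for the 8 immediate early genes above, was also highest here. With the Gapdh value as a covariate the differences of Cxcl2, Ccl3 and Ptgs2 were 3.74, 2.60 and 2.26. The 3' minus 5' difference of the beta-actin control was 0.27, 0.39, 0.38 and 0.36 in proliferation. In transition it was 0.42, 0.42, 0.22 and 0.29, so that transition 1 and 2 were level. The beta-actin difference between the states was not tested.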

How the data were processed

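Total RNA from mouse bone marrow was measured on arrays of 22690 probe sets. The deposited values are log2 levels, made by the authors with RMA, affy and limma per the submitters' processing notes, with versions not given in the sources used here. Marrow and spleen appear to have been normalized apart, and spleen entered 1 alternative alone. Of the probe sets, 20393 had 1 gene symbol, 691 several and 1606 none listed. A gene was its brightest probe set over the 15 marrow arrays, which gave 12394 genes with no filter on dim values, and 823 of 934 list entries matched. Correlations between marrow arrays were 0.962 to 0.995, and no 2 arrays were identical.

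The 4 marrow groups were fitted in 1 model with limma 3.58.1 in R 4.3.3 (lmFit and eBayes, two-sided, Benjamini-Hochberg over all genes, threshold 0.05), and all p-values of genes are from this fit. Differences are given ± the standard error of the fit. Lists are described by counts and medians. The fit was tested on simulated data. Figures were drawn with matplotlib 3.10.9 in Python 3.11.15. Arrays give no read depth, and their number limits the precision: the median standard error of a difference was 0.17.

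The genes named were the 12 largest positive and 12 largest negative differences among genes at an unadjusted p under 0.05 whose arrays did not overlap, without placeholder symbols or antigen receptor segments, the 3 smallest p-values, up to 6 members of each list by p, and 16 fixed genes. The members and lists were chosen with earlier results of these data known. Genes outside the rule are said to be so. Promoters came from RefSeq (GRCm38.p6) and were searched on both strands.

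Replicate numbers did not serve as pairs: the labels link no mice, and same-numbered arrays of the 2 states had correlations of -0.12, 0.14, 0.09 and -0.37. The alternatives were quantile normalization again, median centring, genes above the median level, the mean or the most variable probe set of a gene, the 8 arrays alone, all 29 arrays, eBayes with a trend and robust priors, weights per array, the replicate number as a block, the Gapdh difference as a covariate, and each marrow array left out. Leaving out proliferation 1 and transition 1 together was chosen after seeing the data.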

Additional observations from a re-analysis of the deposited data

Results flagged for a closer look

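Within each group of 4 arrays, a single array far from its neighbours was looked for by Dixon's ratio in every named gene and list. Of 218 groups, 17 held such an array, and chance gives about 1 in 20. No explanation was tested.

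Transition 1 stood alone at the top for Ccl3 (11.21), Fosb (8.76) and Nfkbia (14.34) and at the bottom for Vamp1 (7.78). It was also the lowest for the median of the p53 target and apoptosis list (-0.14, relative to wild type) and of the mature neutrophil list (-0.07). Transition 3 stood alone at the top for Spsb4 (8.86), Matn2 (6.40) and Psmg4 (10.12), transition 2 for Hoxa10 (10.19) and the NK and cytotoxic list (0.12), and transition 4 for the chemokine list (0.06). Proliferation 1 stood alone for Myh2 (11.37) and the fat and muscle list (2.06), where it was highest, and for Hoxa9 (12.93) and Mki67 (13.63), where it was lowest. Proliferation 3 was alone at the top for Dusp2 (8.42).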

How the results depend on the processing

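Past the adjusted threshold there were 0 genes under every alternative other than array weights, which gave 3. The 266 genes at an unadjusted p under 0.05 became 114 among genes above the median level, 990 with array weights, 453 with the Gapdh covariate (300 of them lower in transition, against 116) and 554 without proliferation 1 and transition 1, and ran from 152 to 600 with 1 array left out. With the replicate number as a block 347 genes reached it and 0 passed the adjusted threshold; of these, 229 were among the 266. The Gapdh difference itself stayed between -0.31 and -0.08 with 1 array left out.

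Some fixed genes with differences near 0 changed sign. With array weights Esr1 was at -0.036, Hoxa9 at 0.17, Meis1 at 0.10, Cdkn2a at -0.063 and Il6 at 0.0098. Without proliferation 1 and transition 1, Hoxa9 was at 0.0018, Chek1 at -0.12 and Il6 at 0.044. Hoxa9 was at 0.034 with the mean of its probe sets and Mllt1 at -0.050 with its most variable one. With 1 array left out Esr1 ran from -0.079 to 0.099, Hoxa9 from -0.19 to 0.091, Cdkn1a from -0.018 to 0.31, Cdkn2a from -0.0077 to 0.23, Chek1 from -0.11 to 0.24, Il6 from -0.30 to 0.23, Nfkbia from -0.063 to 0.070 and Alas2 from -0.93 to 0.075. The cause of these changes was not tested. Cxcl2, Ccl3 and Ptgs2 kept their sign in all 26 alternatives in which they were tested. Levels near or under the lower quartile limit what can be said of several genes. Among them were Ptgs2, Il6, Cdkn2a, Cxcl1, Lif, Matn2 and, on most proliferation arrays, Ripk4.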

Other observations

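Growth factor and kinase genes outside the lists also differed, and were named after their values were seen. Ripk4, a kinase of the receptor-interacting family, was at 6.07, 5.87, 6.69 and 6.16 in proliferation and at 6.50, 8.19, 8.67 and 7.80 in transition, where transition 1 overlapped with proliferation. The difference was 1.60 ± 0.41 and 2.02 without transition 1. Erbb3, a receptor of the neuregulin family of growth factors, was at 7.35, 8.56, 7.87 and 8.75 and at 8.61, 8.85, 9.92 and 9.87 (1.18 ± 0.37), and Nrg4, a neuregulin, at 8.36, 9.00, 9.08 and 8.35 and at 8.59, 9.75, 10.55 and 9.69 (0.94 ± 0.34). Both overlapped between the states, and wild type had Nrg4 at 6.96 to 7.23. For these 3 genes transition 1, the highest array for Cxcl2, Ccl3 and Ccl4, was the lowest transition array. F2r, a thrombin receptor, was at 12.50, 11.27, 11.83 and 11.06 in proliferation and at 11.27, 11.13, 10.11 and 10.22 in transition (-0.98 ± 0.35).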
